A study of Homo sapiens with 46 samples.

Results

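Replication-dependent histone genes encode the bulk of the linker histone H1 and of the core histones H2A, H2B, H3 and H4. The genes were taken by symbol, as H1-1 to H1-5 and every protein-coding gene named H2AC, H2BC, H3C or H4C with a number, and 68 of the 60668 gene identifiers in the count tables met this rule. They comprised 5 H1, 17 H2A, 18 H2B, 13 H3 and 15 H4 genes. In the human genome (GRCh38) 54 of them lie on chromosome 6, 13 on chromosome 1 and 1, H4C16, on chromosome 12. Of the 68, 66 were matched by identifier and 2, H2AC18 and H2AC19, by their older names.

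Their levels were compared between treated and control samples in 4 experiments, which together held 46 libraries. MDA-MB-231 is a breast cancer cell line and U87MG a glioblastoma cell line. Both were transfected for 48 hours with ASO-1570, an antisense oligonucleotide directed at the splicing factor TRA2B, or with a control oligonucleotide, at 200 nM in 1 experiment and at 50 nM in another. In the third experiment both lines were given 10 nM of siRNA for 48 hours, directed at TRA2B or a control. There were 3 libraries in each of these 12 groups, and the oligonucleotides and siRNAs were all delivered with a lipid reagent, controls included. In the fourth, a breast cancer PDX (a human tumour grown in mice) was injected with ASO-1570 or the control oligonucleotide at 50 mg/kg, 3 times a week for 4 weeks, with 5 tumours per group. All 10 tumours derive from a single PDX model, and the labels describe the host mice as immunocompetent. No label says whether the 3 libraries of a cell line group were separate cultures, so the p-values measure the spread between these libraries.

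Replication-dependent histone genes are transcribed in S phase, when new DNA has to be packed into nucleosomes. Each nucleosome holds a core of H2A, H2B, H3 and H4, and H1 binds the DNA that links them. Most of these mRNAs end in a conserved stem-loop instead of a poly(A) tail. The stem-loop is bound by SLBP, and the U7 snRNP with part of the cleavage machinery cuts the transcript just after it. Some of these genes also give longer, spliced or polyadenylated transcripts, which are best known from differentiated or non-dividing cells. Library preparation used a stranded mRNA kit. The levels below are therefore those of histone transcripts that such a kit captures, and the share of all histone mRNA that they represent was not measured.

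The stem-loops of the members on which the results turn are shown because they are the element that sets the usual 3′ end of these mRNAs. The sequences are from the GENCODE v29 transcript models (GRCh38), written as DNA, 5′ to 3′, with the 16-base stem-loop in capitals and 5 bases on each side in lower case. A stem-loop was found in the annotated transcripts of 30 of the 68 genes, and in 29 of these all 6 base pairs of the stem were complementary.
H2BC21: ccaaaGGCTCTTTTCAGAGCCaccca
H2BC26: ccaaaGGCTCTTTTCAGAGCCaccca
H2AC25: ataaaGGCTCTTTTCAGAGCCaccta
H2AC18: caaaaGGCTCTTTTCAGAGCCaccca
H2AC6: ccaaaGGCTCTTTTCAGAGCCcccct
H2BC5: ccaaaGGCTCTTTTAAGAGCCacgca
H4C16: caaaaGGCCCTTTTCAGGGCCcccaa
H4C9: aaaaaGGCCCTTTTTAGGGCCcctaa
The H2A and H2B members shown share the stem GGCTCT and its complement, and the H4 members have GGCCCT in the same place. H2AC25 has the same stem-loop as its neighbour H2BC26. The loop of H2BC21 lies 60 bases after the end of the coding sequence, at chr1:149886188-149886203 on the minus strand, and that of H2BC26 lies 31 bases after it, at chr1:228458538-228458553 on the plus strand. The annotated transcripts go on past the loop in many members. In 23 of the 66 genes present in GENCODE v29 a transcript reaches more than 100 bases beyond the loop, for example 1729 bases in H2BC21, 1917 in H2BC26, 390 in H2AC25 and 14432 in H2AC6. In 7 members the models end within 100 bases of the loop, as they do in H2AC18 and H2AC19 at 35 bases. In the other 36 the models hold no loop. Many of these models stop at the end of the coding sequence. The H2BC12 model spans 381 bases for a coding sequence of 378, and that of H1-2 spans 642 for 639. A loop beyond the model end could not be found, so these genes are not shown to lack it. Of the 66, 13 have a spliced transcript model and 53 have only models of 1 exon.

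Total counts per library were 259885034 to 356831838 at 200 nM, 78562645 to 112813820 at 50 nM, 74978304 to 111134596 with siRNA and 75338390 to 109589376 in the PDX. Levels are given as CPM, counts divided by the library size after TMM scaling and set to a common total. A gene was called changed when the adjusted p of edgeR's quasi-likelihood test was below 0.05 over all genes of that table. TRA2B served as the check of the labels. It fell from 198 to 109 CPM on average in MDA-MB-231 and from 157 to 76.7 CPM in U87MG at 200 nM. At 50 nM it fell from 220 to 129 CPM and from 166 to 76.2 CPM. The siRNA lowered TRA2B from 192 to 22.2 CPM in MDA-MB-231 and from 181 to 25.5 CPM in U87MG. In the PDX it was 94.5 CPM in treated and 106 CPM in control tumours, with an adjusted p of 0.707. At 50 nM and with siRNA, the labels of the MDA-MB-231 libraries give glioblastoma as the cell type, but all 6 epithelial markers were at or above 1 CPM in every MDA-MB-231 group and at most 3 of the 6 in any U87MG group. The summed epithelial level was 1380 CPM or more in every library labelled MDA-MB-231. Of 5 glial markers, 2 or 3 reached 1 CPM in U87MG, where SOX2 and S100B averaged below it. In every MDA-MB-231 group 2 of the 5 reached it as well, so this count did not separate the lines. Mitochondrially encoded genes took 1.73% to 3.16% of the counts in the cell lines and 17.65% to 75.31% in the PDX.

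The members differed between the cell lines before any treatment effect is considered. In MDA-MB-231, 24 of the 68 genes had no more than 11 counts in any of the 18 libraries. Of these 24, 20 exceeded 11 counts in at least 1 U87MG library. In U87MG only 4 genes, H2AC1, H2BC1, H4C6 and H4C7, stayed at or below 11 counts in all 18 libraries, and the same 4 were also at or below it in MDA-MB-231 and in the 10 PDX libraries. In the PDX 9 genes stayed at or below 11 counts. Of the 24 that were low in MDA-MB-231, 18 were above it in at least 1 U87MG library and at least 1 PDX library.

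The genes that were low in MDA-MB-231 stood next to each other. Along chromosome 6, 15 consecutive members from H4C4 to H2BC10 (chr6:26188710-26273412) were all low, among them H1-3, H2BC8, H2AC8, H3C6 and H2BC9. Only H4C6 and H4C7 of these 15 were also low in U87MG. Their neighbours on either side were expressed in the same libraries, H2BC6 with 70 to 294 counts and H4C8 with 298 to 1236 counts. A second stretch of 4 members, H2AC16, H1-5, H3C11 and H4C13 (chr6:27865317-27873534), was low in MDA-MB-231. Each exceeded 11 counts in at least 1 U87MG and 1 PDX library, but H4C13 had a median of 6 counts in the PDX. H1-1 on chromosome 6 and the neighbours H2AC25 and H2BC26 on chromosome 1 had at most 3, 1 and 1 counts in MDA-MB-231. They too exceeded 11 counts in at least 1 U87MG and 1 PDX library. In the PDX H2BC26 had 0 to 25 counts. H1-5 had at most 1 count in MDA-MB-231 and a median of 129.5 counts in U87MG and 162 in the PDX. H2BC9 had 0 counts in all 18 MDA-MB-231 libraries, against a median of 227.5 in U87MG and 1002 in the PDX. These are descriptions over libraries of separate experiments, and the state of the DNA at these places was not measured.

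**Figure D1:**
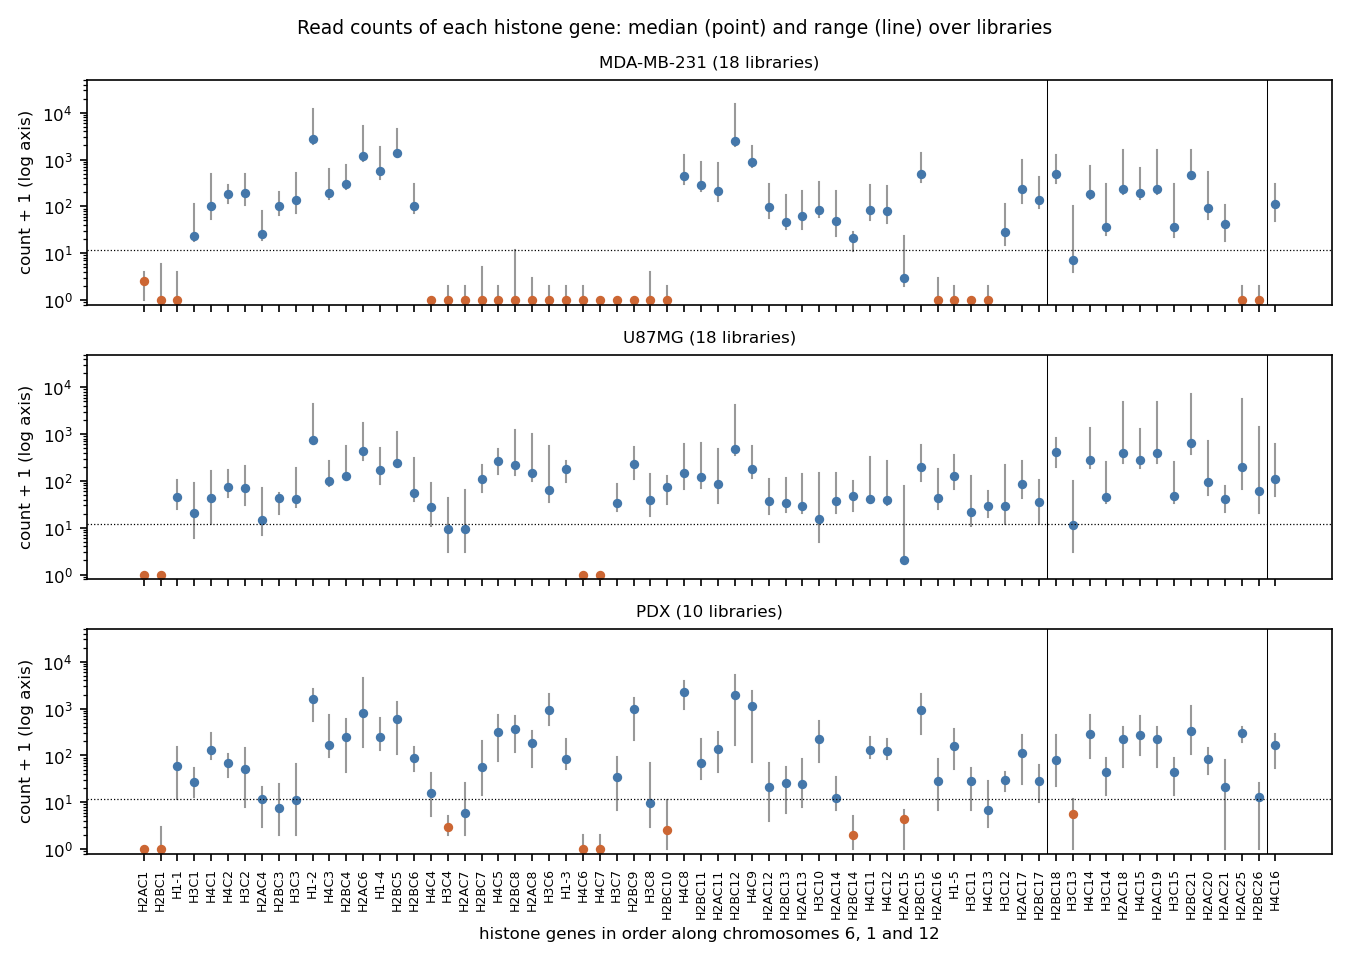
Read counts (plus 1, log axis) of each of the 68 histone genes, in their order along chromosomes 6, 1 and 12, in 18 MDA-MB-231, 18 U87MG and 10 PDX libraries; points are medians, lines run from the lowest to the highest library, orange points are genes with at most 11 counts in every library of that panel, and the dotted line marks 11 counts. The run of 15 genes from H4C4 to H2BC10 lies at the bottom of the MDA-MB-231 panel. Of these 15, 2 had at most 11 counts in every U87MG library and 4 in every PDX library.

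A few members took much of the histone counts, and which ones differed between the lines. In MDA-MB-231 controls of the 200 nM experiment H2BC12 took 25.4% and the linker histone gene H1-2 took 18.7% of all member counts, and the leading 5 genes took 63.1%. In the U87MG controls of that experiment the leading genes were H1-2 with 10.9%, H2BC12 with 8.57% and H2AC19 with 7.95%, and the leading 5 took 41.6%. H2AC19 and H2AC18 have identical coding sequences, so the share of either alone is uncertain. In PDX controls H4C8 led with 12.6%. The 24 genes that were low in MDA-MB-231 made up 18.5% of the member counts in those U87MG controls and 20.6% in PDX controls, but 0.00823% in the MDA-MB-231 controls. Over all libraries the 10 members with the highest mean CPM were H1-2, H2BC12, H2AC6, H2BC5, H4C8, H2BC21, H4C9, H2BC15, H2AC18 and H2AC19. This order pools lines and tumours, describes no single group and is not corrected for transcript length. H4C8, for example, averaged 23.1 CPM in PDX controls and 1.09 CPM in the U87MG controls of the 200 nM experiment.

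Summed over the 68 genes, histone CPM was higher with ASO-1570 in U87MG at 200 nM and lower in MDA-MB-231 at both doses. At 200 nM the U87MG controls summed to 81.8, 83.6 and 78.3 CPM, and the treated libraries to 118, 152 and 120 CPM. The groups did not overlap, and treated replicate 2 stood above the other 2 treated libraries. In MDA-MB-231 at 200 nM the controls summed to 182, 174 and 169 CPM and the treated libraries to 151, 166 and 152 CPM. At 50 nM U87MG controls held 83.5, 79.0 and 70.1 CPM and treated libraries 90.6, 105 and 78.1 CPM, which overlapped. MDA-MB-231 at 50 nM had 149, 160 and 162 CPM in controls and 136, 134 and 142 CPM in treated libraries. With plain total counts in place of TMM the 2 MDA-MB-231 comparisons overlapped, and the U87MG comparison at 50 nM no longer did. With siRNA the groups overlapped in both lines, at 138 to 153 CPM in MDA-MB-231 controls against 137 to 148 CPM with siRNA, and at 87.1 to 89.4 CPM in U87MG controls against 83.5 to 92.0 CPM. No test was made on these sums. They include pairs of genes with identical coding sequences, and how reads shared by a pair were counted is not given. In bulk RNA, a change in the number of cells in S phase and a change in histone RNA per cell cannot be told apart.

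**Figure D2:**
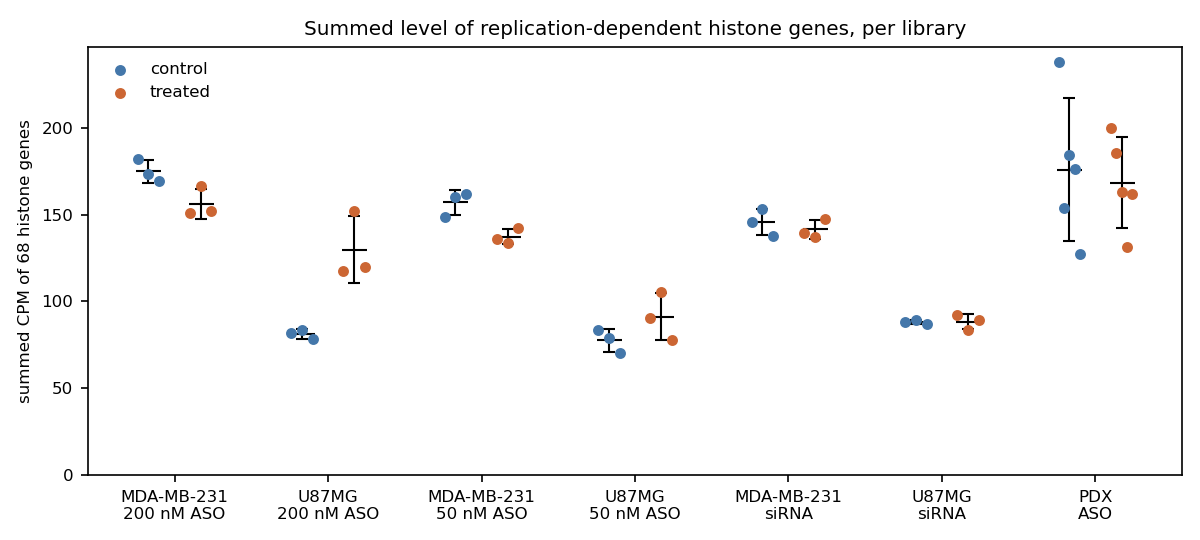
Summed CPM (TMM-scaled) of the 68 histone genes in each library of the 7 comparisons; points are libraries, blue for control and orange for treated, and bars are the mean and SD of each group. The U87MG libraries with 200 nM ASO-1570 lie at 118 to 152 CPM, above their controls at 78.3 to 83.6 CPM.

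The classes contributed unequally to the U87MG sum at 200 nM. Summed H2A was 27.9 to 29 CPM in controls and 45.6 to 57.4 CPM in treated libraries, and summed H2B was 22.5 to 25.5 CPM and 39.4 to 55.6 CPM. The H2A sum includes H2AC18 and H2AC19, with identical coding sequences, whose shared reads may be split or counted at both genes. Summed H4 was 11.2 to 12.8 CPM in controls and 14.6 to 17.4 CPM in treated libraries, and summed H1 was 11.8 to 12.7 CPM and 13.7 to 15.9 CPM. In these 4 classes the groups did not overlap. H3, the class with the lowest sum, held 4.26 to 5.13 CPM in controls and 4.45 to 5.57 CPM in treated libraries, which overlapped.

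In U87MG at 200 nM, 24 of the 63 members tested rose and 4 fell, and 35 were not called. Over all genes of that comparison 25.8% rose and 23.9% fell, so that the share of members that rose was above and the share that fell below the background. The median log2 change was 0.24 over the members and 0.02 over all 26159 genes tested. By class, 8 of 15 H2A genes rose and 1 fell, 7 of 17 H2B genes rose and 1 fell, 6 of 13 H4 genes rose and 2 fell, 2 of 13 H3 genes rose, and 1 of 5 H1 genes rose. Counting 1 gene of each pair with the same coding sequence left 21 that rose and 4 that fell.

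The gene with the largest change was H2BC26, an H2B gene on chromosome 1. It had 0.273, 0.303 and 0.319 CPM in the 3 controls and 1.96, 4.05 and 2.61 CPM in the 3 treated libraries. The groups were far apart, with a log2 change of 3.27 ± 0.30 (SE; adjusted p = 4.4e-05). H2AC25, an H2A gene, is its neighbour on the opposite strand, and the annotated starts are at 228457873 for H2AC25 and 228458103 for H2BC26 on chromosome 1. H2AC25 had 5.01, 5.04 and 5.25 CPM in controls and 10.4, 16.2 and 12.2 CPM in treated libraries. It rose by 1.34 ± 0.17 (log2, SE; adjusted p = 0.00032). Both genes start from the stretch printed here, which is why it is shown. It is the RefSeq promoter of H2BC26 (GRCh38.p14, chr1:228457853-228458152, plus strand), from 250 bases before to 50 bases after the start, with each CCAAT box (in either orientation) in capitals.
H2BC26 promoter: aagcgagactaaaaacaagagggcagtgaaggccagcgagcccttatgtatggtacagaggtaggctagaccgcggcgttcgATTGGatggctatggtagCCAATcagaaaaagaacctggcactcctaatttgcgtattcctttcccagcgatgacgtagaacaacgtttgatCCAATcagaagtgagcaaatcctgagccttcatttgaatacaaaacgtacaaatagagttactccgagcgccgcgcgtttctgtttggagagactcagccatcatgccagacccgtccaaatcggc
The window held 3 CCAAT boxes, and the same 3 were in the window of H2AC25, which overlaps it. No TATAAA and no ATTTGCAT was found in either window.

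H2BC21 was the largest riser among the more abundant members. This H2B gene on chromosome 1 had 4.62, 5.31 and 5.17 CPM in controls and 14.8, 21 and 14 CPM in treated libraries, a log2 change of 1.72 ± 0.18 (SE; adjusted p = 1.0e-05). In treated U87MG the largest share of member counts at a single gene was that of H2BC21, 12.8%. H2AC19 had 9.97% and H2AC25 had 9.94%. The H2A genes H2AC18 and H2AC19 have identical coding sequences, so that their reads cannot be assigned to either gene. How such reads were counted is not given, so this pair cannot be ranked against H2BC21. H2AC18 had 6.85, 6.10 and 6.34 CPM in controls and 12.1, 14.1 and 12.3 CPM in treated libraries (log2 change 1.00 ± 0.14 SE, adjusted p = 9.6e-05).

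H2BC8 and H3C6 completed the 5 largest risers among members of at least 1 CPM. H2BC8 had 1.17, 1.27 and 0.813 CPM in controls and 2.00, 3.49 and 2.21 CPM in treated libraries, and rose by 1.24 ± 0.45 (adjusted p = 0.043). This call was lost in DESeq2 (adjusted p = 0.295), without the filter on low counts and when any single library was left out. H3C6, an H3 gene, had 0.546, 0.517 and 0.359 CPM in controls and 0.812, 1.61 and 0.842 CPM in treated libraries, with a log2 change of 1.20 ± 0.33 (adjusted p = 0.017). It was not called without control replicate 3 (adjusted p = 0.081) or without treated replicate 2 (adjusted p = 0.059). The other risers below 1 CPM included H2BC6, from 0.253 to 0.665 CPM on average, H3C10, from 0.132 to 0.309 CPM, and H2AC15, from 0.0455 to 0.140 CPM.

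The abundant H1-2 and H2BC12 rose less. H1-2 had 9.36, 8.51 and 8.55 CPM in controls and 11, 12.9 and 11.2 CPM in treated libraries (log2 change 0.41 ± 0.12 SE, adjusted p = 0.011). H2BC12 had 7.38, 6.92 and 6.52 CPM in controls and 9.25, 12.1 and 9.27 CPM in treated libraries (0.56 ± 0.10, adjusted p = 0.00057). H4C9, an H4 gene, rose by 0.65 ± 0.13, from 0.864 to 0.954 CPM in controls to 1.28 to 1.59 CPM in treated libraries.

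Of the 4 that fell, H2AC6 was the only one above 1 CPM. It had 5.0, 4.76 and 4.61 CPM in controls and 3.72, 3.4 and 3.1 CPM in treated libraries, without overlap, and fell by 0.49 on the log2 scale (SE 0.13, adjusted p = 0.0064). The other 3 were H4C1, from 0.473 to 0.231 CPM on average, H4C2 and H2BC17. In H4C2 and H2BC17 the groups overlapped. H2BC17 had 0.142 to 0.361 CPM in controls and 0.132 to 0.155 CPM in treated libraries.

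**Figure D3:**
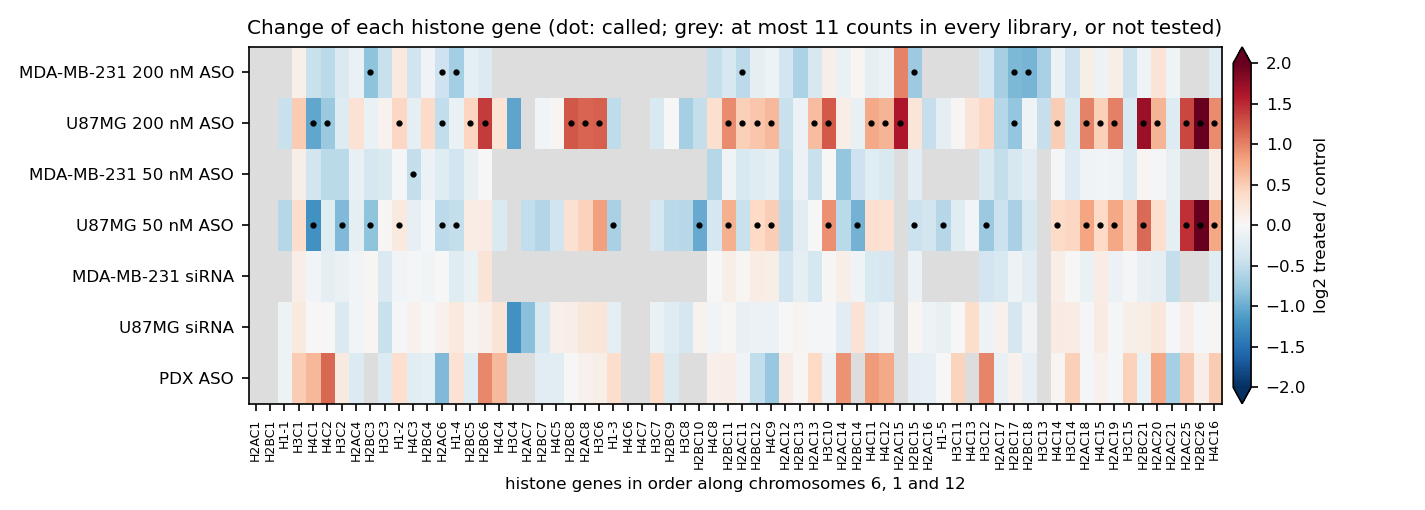
Log2 change (treated over control, colour scale ending at -2 and 2) of each histone gene in the 7 comparisons, in the order of the genes along chromosomes 6, 1 and 12; a dot marks an adjusted p below 0.05, and grey marks genes with at most 11 counts in every library of that line or tumour or not tested. The U87MG rows with ASO-1570 hold 28 and 24 dots, and the siRNA and PDX rows hold none.

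At 50 nM, with its own control libraries, U87MG had 13 members that rose and 11 that fell among the 61 tested. Over all genes 27.9% rose and 26.7% fell, so neither share of members stood above the background. The median log2 change was -0.19 over the members and 0.003 over all genes. All 13 that rose at 50 nM were also among the 24 that rose at 200 nM, which is 54.2% of the 24. They were H1-2, H2AC18, H2AC19, H2AC25, H2BC11, H2BC12, H2BC21, H2BC26, H3C10, H4C9, H4C14, H4C15 and H4C16. Of the falling genes 2, H2AC6 and H4C1, fell in both experiments, and no member rose in 1 experiment and fell in the other. The rule for the members used no values, and the 2 experiments share no library. How many of all genes that rose at 50 nM also rose at 200 nM was not counted. The overlap is therefore not set against a background and is not shown to be particular to histone genes.

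Among risers with a mean of at least 1 CPM in a group, H2BC26, H2AC25 and H2BC21 again had the largest log2 changes. H2BC26 had 0.362, 0.351 and 0.303 CPM in controls and 1.71, 2.51 and 1.33 CPM in treated libraries (log2 change 2.45 ± 0.29 SE, adjusted p = 7.3e-05). H2AC25 had 1.51, 1.47 and 1.40 CPM in controls and 3.75, 5.25 and 3.11 CPM in treated libraries (1.47 ± 0.24, adjusted p = 0.00058). For both genes each treated library was above every control. H2BC21 had 5.40, 5.40 and 5.26 CPM in controls and 12.6, 14.4 and 8.04 CPM in treated libraries (1.13 ± 0.17, adjusted p = 0.00016). H2AC18, counted without H2AC19, had 3.29, 3.43 and 3.11 CPM in controls and 5.67, 6.68 and 4.57 CPM in treated libraries (0.78 ± 0.13, adjusted p = 0.00040). H4C16, the H4 gene on chromosome 12, had 1.04, 0.504 and 0.879 CPM in controls and 1.44, 1.45 and 1.27 CPM in treated libraries (0.78 ± 0.24, adjusted p = 0.016). Treated replicate 2 was the highest in each of these 5 genes, and without it H4C16 was no longer called (adjusted p = 0.054).

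The genes that fell in U87MG at 50 nM included 3 of the 5 H1 genes. H1-3 had 1.96, 1.97 and 1.61 CPM in controls and 1.30, 1.12 and 1.13 CPM in treated libraries, and fell by 0.64 (log2, SE 0.17, adjusted p = 0.013). H1-5 had 1.40, 1.44 and 1.17 CPM in controls and 0.829, 1.06 and 0.805 CPM in treated libraries, and fell by 0.57 (SE 0.19, adjusted p = 0.037). H1-4 had 1.77, 1.80 and 1.37 CPM in controls and 0.914, 1.35 and 1.30 CPM in treated libraries, and fell by 0.47 (SE 0.17, adjusted p = 0.033). H1-2 went the other way, from 7.51, 7.54 and 6.47 CPM to 7.86, 8.44 and 8.25 CPM (log2 change 0.19 ± 0.07 SE, adjusted p = 0.048). The fall of H1-3 held in every refit, while those of H1-4 and H1-5 were lost in 3 and 4 of the 6 refits that left out a library.

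H2AC6 fell again, from 4.84, 4.70 and 4.15 CPM in controls to 2.96, 3.20 and 3.36 CPM in treated libraries (by 0.52 on the log2 scale, SE 0.12, adjusted p = 0.0025). H2BC15 had 2.00, 2.11 and 1.88 CPM in controls and 1.49, 1.74 and 1.21 CPM in treated libraries, and its adjusted p of 0.039 was above 0.05 in 5 of 6 refits without a library. The other falls were below 1 CPM, in H4C1, H2BC10, H2BC14, H3C2, H2BC3 and H3C12, between 0.74 and 1.21 on the log2 scale. Leaving out control replicate 2 lowered the number of members called from 24 to 15, with 10 that rose and 5 that fell.

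**Figure D4:**
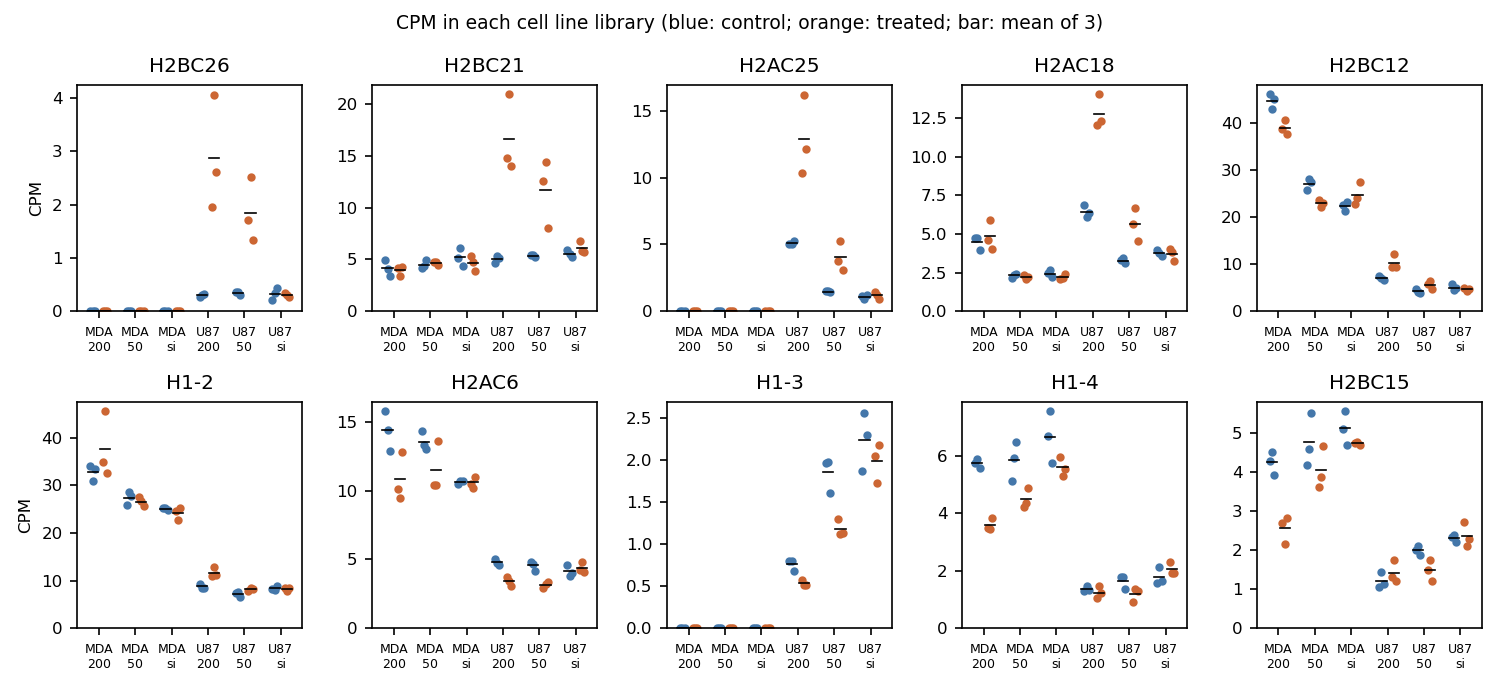
CPM of 10 named histone genes in the libraries of MDA-MB-231 and U87MG at 200 nM ASO, at 50 nM ASO and with siRNA; points are libraries, blue for control and orange for treated, and the bar is the mean of 3. H2BC26, H2BC21, H2AC25 and H2AC18 are higher in U87MG with ASO-1570 at both doses, and H2BC26, H2AC25 and H1-3 lie at or next to 0 in all MDA-MB-231 libraries.

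Few members were called in MDA-MB-231, and nearly all of these fell. At 200 nM, 7 of the 63 members tested fell (11.1%, against 13.6% of all genes). A single member, H3C8, rose (1.59%, against 11.7%). The share that fell was near the background, and the share that rose was below it. These 8 calls became 4 with the replicate block, 4 without the filter on low counts and 12 with DESeq2. The share of all genes that DESeq2 called was not counted. Leaving out 1 library gave 3 to 9 calls. There were 3 without control replicate 1 or control replicate 2, and 5 without treated replicate 1 or treated replicate 2. The rise of H3C8 rests on at most 3 counts per treated library and none in the controls, so that its level was at the floor in both groups and no fold is given. Of the 63 members, 19 were among those with at most 11 counts in this line and entered the test through the U87MG libraries. Among the other 44 the 7 falls remained, and the median log2 change was -0.28.

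H1-4 had the smallest p of these. It had 5.75, 5.89 and 5.58 CPM in controls and 3.48, 3.45 and 3.82 CPM in treated libraries, and fell by 0.68 on the log2 scale (SE 0.13, adjusted p = 0.0034). H2BC18, an H2B gene on chromosome 1, had 3.4, 4.1 and 2.63 CPM in controls and 1.88, 1.42 and 2.00 CPM in treated libraries, and fell by 0.94 (SE 0.21, adjusted p = 0.0062). In both genes every treated library was below every control. H2BC15 had 4.28, 4.51 and 3.92 CPM in controls and 2.69, 2.15 and 2.81 CPM in treated libraries, and fell by 0.73 (SE 0.18, adjusted p = 0.010). H2BC17 had 1.28, 1.28 and 0.992 CPM in controls and 0.718, 0.502 and 0.678 CPM in treated libraries (a fall of 0.91, SE 0.28, adjusted p = 0.032). H2AC11 had 2.46, 2.72 and 2.56 CPM in controls and 1.74, 1.53 and 2.09 CPM in treated libraries (a fall of 0.53, SE 0.17, adjusted p = 0.041). The calls of H2BC17 and H2AC11 were lost with the replicate block (adjusted p = 0.052 and 0.053), without the filter, and in 3 and 5 of the 6 refits that left out a library.

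H2AC6 also fell in MDA-MB-231 at 200 nM, from 15.8, 14.4 and 12.9 CPM in controls to 10.1, 9.43 and 12.8 CPM in treated libraries (by 0.42 on the log2 scale, SE 0.13, adjusted p = 0.029). H2BC3 was the remaining one, from 0.566 to 0.324 CPM on average. The 2 leading genes of this line did not pass the test. H2BC12 had 46.0, 42.8 and 45.1 CPM in controls and 38.7, 40.5 and 37.5 CPM in treated libraries (adjusted p = 0.167), and H1-2 had 31.0 to 34.1 CPM and 32.7 to 45.6 CPM (adjusted p = 0.228). H2BC21, which rose in U87MG, had 4.94, 4.07 and 3.41 CPM in controls and 4.17, 3.35 and 4.23 CPM in treated libraries (log2 change -0.08 ± 0.18 SE, adjusted p = 0.810).

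At 50 nM in MDA-MB-231 a single member of the 61 tested fell (1.64%, against 13.2% of all genes). None rose, against 10.1% of all genes. H4C3, an H4 gene, had 2.16, 2.54 and 2.36 CPM in controls and 1.61, 1.67 and 1.79 CPM in treated libraries, and fell by 0.48 on the log2 scale (SE 0.12, adjusted p = 0.016). It was not called when control replicate 2 (adjusted p = 0.067), treated replicate 1 (0.058) or treated replicate 2 (0.056) was left out. DESeq2 called 6 members, all of them lower with ASO-1570. The share of all genes that DESeq2 called was not counted, so these 6 are not set against a background. The median log2 change over the 42 tested members with more than 11 counts in the line was -0.24, against 0.01 over all genes. H4C8, the next gene after the run of low genes on chromosome 6, had 4.88, 4.86 and 5.51 CPM in controls and 3.29, 3.53 and 3.45 CPM in treated libraries, with an adjusted p of 0.059.

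The effect of ASO-1570 was tested for a difference between the lines. At 200 nM the changes of 19 of 63 members differed (30.2%, against 23.6% of all genes), and 18 of these were lower in MDA-MB-231 than in U87MG. The exception was H3C8, at 3 counts or fewer in MDA-MB-231. Of the 63 members, 44 had more than 11 counts in a MDA-MB-231 library, and 18 of these 44 differed. The difference, as the MDA-MB-231 change minus the U87MG change, was -1.80 ± 0.25 for H2BC21 (log2, SE; adjusted p = 0.00057), -1.01 ± 0.25 for H2AC11 (adjusted p = 0.011), -0.97 ± 0.25 for H2BC15 (adjusted p = 0.015) and -0.86 ± 0.29 for H2BC18 (adjusted p = 0.048). H2AC11 was higher with ASO-1570 in U87MG and lower with it in MDA-MB-231, past the threshold in each. H2AC6 fell in both lines, and its difference was not called. At 50 nM the changes of 6 of 61 members differed (9.84%, against 28.2% of all genes). All 6 were among the 42 members with more than 11 counts in MDA-MB-231, and the other 19 entered the test through U87MG. These were H2AC18, H2AC19, H2BC11, H2BC12, H2BC21 and H4C9, each of them also among the 19 at 200 nM and each lower in MDA-MB-231. H2BC26 and H2AC25, which rose in U87MG at both doses, had at most 1 count in any MDA-MB-231 library. A change there was not detectable at this depth.

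The siRNA against TRA2B changed no member past the threshold in either line. It lowered the RNA counts of TRA2B further than the oligonucleotide did. These counts do not separate the transcripts of TRA2B, and its protein is not in these data. In MDA-MB-231, 0 of 62 members were called, against 3.65% of all genes that rose and 3.6% that fell. Of these 62, 20 had at most 11 counts in that line and entered the test through U87MG, which leaves 42 above it. The smallest adjusted p was 0.173, for H2AC17, 2 members had an unadjusted p below 0.05, and DESeq2 also called 0. In U87MG, 0 of 62 were called, against 1.6% and 2.6% of all genes, with a smallest adjusted p of 0.272 for H3C4, 1 member with an unadjusted p below 0.05, and 0 called by DESeq2. H2BC21 in U87MG had 5.91, 5.47 and 5.26 CPM with the control siRNA and 6.74, 5.84 and 5.74 CPM with the TRA2B siRNA. H2BC26 had 0.199, 0.334 and 0.425 CPM and 0.346, 0.301 and 0.267 CPM, and H2AC6 had 4.59, 3.80 and 3.99 CPM and 4.21, 4.79 and 4.12 CPM. In all 3 genes the groups overlapped. No member differed between the lines under siRNA (0 of 62, against 0.527% of all genes, with 3 members at an unadjusted p below 0.05). These 62 include the same 20 low members, and 42 had more than 11 counts in MDA-MB-231.

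The change with 50 nM ASO-1570 was also set against the change with siRNA in the same line. The 2 agents were used in separate experiments, so agent and experiment cannot be told apart. In U87MG the changes of 14 of 63 members differed (22.2%, against 40.1% of all genes), 8 of them higher with the oligonucleotide and 6 lower. The difference was 2.46 ± 0.44 for H2BC26 (log2, SE; adjusted p = 0.00031), 1.31 ± 0.34 for H2AC25, 0.96 ± 0.23 for H2BC21 and 0.79 ± 0.17 for H2AC18. It was -0.64 ± 0.14 for H2AC6, -0.70 ± 0.23 for H1-4 and -1.25 ± 0.38 for H4C1. In MDA-MB-231 edgeR called 0 of 63 members (against 15.8% of all genes), with 5 at an unadjusted p below 0.05 and a smallest adjusted p of 0.0814, for H2BC12. Of these 63, 20 had at most 11 counts in that line and entered the test through U87MG, which leaves 43 above it. With the replicate block 1 member was called.

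In the PDX no member was called, and neither was any other gene. The tests covered 55 members, and 0% of all 23812 genes rose and 0% fell. Of the members 5 had an unadjusted p below 0.05, the smallest adjusted p was 0.487, for H4C12, and DESeq2 called 0. The summed level ranged from 127 to 238 CPM in the 5 control tumours, with a median of 177 CPM, and from 131 to 200 CPM in the 5 treated tumours, with a median of 163 CPM. H4C8 had 20.2 to 27.1 CPM in controls (median 22.9) and 20.4 to 29.6 CPM in treated tumours (median 23.9). H3C6 had 8.16 to 13.9 CPM (median 10.8) and 11 to 13.2 CPM (median 11.5). In both genes the groups overlapped.

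The range within each group was wider in other members. H2BC12 had 4.50 to 33.4 CPM in controls (median 18.5) and 3.99 to 28.8 CPM in treated tumours (median 6.95). H2AC6 had 5.89 to 28.0 CPM in controls (median 15.2) and 3.63 to 21.9 CPM in treated tumours (median 6.13). H4C9 had 4.91 to 15.2 CPM in controls (median 11.3) and 1.73 to 13.6 CPM in treated tumours (median 4.0). All 3 were highest, within each group, in replicate 1, the tumour with the smallest mitochondrial share of its group (17.65% in controls and 22.76% among treated tumours). In the treated tumour with the largest share, 75.31%, H2BC12 had 3.99 CPM and H4C9 had 1.73 CPM. The part of the mitochondrial share in these values was not tested. H2AC25 and H2BC21, which rose in U87MG, had adjusted p-values of 0.487 and 0.870 in the PDX, with log2 changes of 0.54 ± 0.27 and -0.14 ± 0.39 (SE).

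Features that the choice of genes did not use were set beside the U87MG calls. On chromosome 1, 8 of 13 members tested rose at 200 nM and 0 fell, and 7 of 12 rose and 0 fell at 50 nM. On chromosome 6, 15 of 49 rose and 4 fell at 200 nM, and 5 of 48 rose and 11 fell at 50 nM. Over all genes 25.8% rose and 23.9% fell at 200 nM, and 27.9% rose and 26.7% fell at 50 nM, so that the chromosome 6 share that rose at 200 nM and the share that fell at 50 nM were near the background. The chromosome 1 genes include the pairs H2AC18 and H2AC19, H3C14 and H3C15, and H4C14 and H4C15, whose shared coding sequence means that 1 change can be counted at both genes. Of the 23 members whose annotated transcript passes the stem-loop by over 100 bases, 12 rose and 1 fell at 200 nM, with a median log2 change of 0.43, and 8 rose and 2 fell at 50 nM, with a median of 0.17. Of members with no stem-loop in their model, 7 of 31 rose and 2 fell at 200 nM, with a median of -0.13, and 3 of 29 rose and 8 fell at 50 nM, with a median of -0.37. Many models without a loop stop at the end of the coding sequence, so this grouping describes the annotation and not the mRNA. In the 7 members whose model ends within 100 bases of the loop, 5 rose and 1 fell at 200 nM, and 2 rose and 0 fell at 50 nM. The counts do not separate reads before the loop from reads after it. These groupings were made after the calls were known and no test was made on them.

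The promoter windows differed between the classes. The RefSeq windows of 63 members were searched on both strands for the CCAAT box, the TATA box as TATAAA and the octamer as ATTTGCAT. CCAAT was in 84.1% of them and in 34.6% of all 35116 promoter windows of the same length, TATAAA in 66.7% against 11.5%, and ATTTGCAT in 41.3% against 1.8%. Every H1, H2A, H2B and H3 window held CCAAT, and 3 of 13 H4 windows did. The octamer was in 11 of 16 H2A and 14 of 18 H2B windows, in 1 of 11 H3 windows and in none of the H1 and H4 windows. H2BC21 held 3 CCAAT, 2 TATAAA and 1 ATTTGCAT, while H2BC26 and H2AC25 held 3 CCAAT only. A match is a description of the letters and not of binding.

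Genes that make, process and use histones were set beside the members from lists written from general knowledge. Of 38 genes of S phase and DNA replication, 37 fell and 0 rose in U87MG at 200 nM, with a median log2 change of -0.89. At 50 nM 37 fell, with a median of -0.84. These are 97.4% of the list at each dose, against 23.9% and 26.7% of all genes that fell. In the same libraries the histone members had medians of 0.24 and -0.19, and all genes 0.02 and 0.003. In MDA-MB-231, 27 of the 38 fell at 200 nM (71.1%, against 13.6% of all genes, median -0.32). At 50 nM 26 fell (68.4%, against 13.2%, median -0.36). Members with more than 11 counts in the line had medians of -0.28 and -0.24, and all genes 0 and 0.01. With siRNA 7 of the 38 rose in MDA-MB-231 (18.4%, against 3.65% of all genes) and 5 fell in U87MG (13.2%, against 2.6%). None of the list was called in the PDX. The other 5 lists held at most 5 called genes each in either siRNA comparison and none in the PDX. The largest of these counts was that of the histone chaperones in U87MG, given below with its background. TYMS, the enzyme that makes thymidylate, fell by 1.73 in U87MG and by 1.35 in MDA-MB-231 at 200 nM (log2; SE 0.12 in each). CDC6, which loads the replicative helicase, fell by 0.76 in U87MG and by 0.41 in MDA-MB-231 at 50 nM (SE 0.05 in each).

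The list of histone mRNA 3′ processing and expression holds 20 genes. In U87MG, 4 of them rose at 200 nM and 6 at 50 nM, while 7 and 9 fell. Over all genes 25.8% rose and 23.9% fell at 200 nM and 27.9% rose and 26.7% fell at 50 nM in this line, and in MDA-MB-231 11.7% rose and 13.6% fell at 200 nM and 10.1% rose and 13.2% fell at 50 nM. In U87MG 20% of the list rose and 35% fell at 200 nM, and 30% rose and 45% fell at 50 nM. In MDA-MB-231, 1 rose at 200 nM and 0 at 50 nM, while 6 fell at each dose. SLBP, which binds the stem-loop, fell in all 4, by 0.51 (SE 0.05) and 0.53 (SE 0.04) in U87MG at 200 and 50 nM and by 0.21 (SE 0.05) and 0.23 (SE 0.04) in MDA-MB-231. CPSF2, a subunit of the cleavage complex, also fell in all 4, by 0.50 in MDA-MB-231 at 200 nM and 0.34 at 50 nM, and by 0.43 and 0.46 in U87MG. ZNF473, a zinc finger protein tied to U7-dependent processing, rose by 1.17 (SE 0.11) in U87MG at 200 nM and by 1.19 (SE 0.17) at 50 nM, and by 0.38 (SE 0.11) in MDA-MB-231 at 200 nM. Of the 8 histone mRNA decay genes, 1 rose at each dose in U87MG, while 3 fell at 200 nM and 4 at 50 nM, beside the same shares over all genes. ERI1, the exonuclease that trims the stem-loop end, fell by 0.46 (SE 0.12) and 0.54 (SE 0.05) there. In each MDA-MB-231 comparison 1 of the 8 fell, EXOSC10, a nuclear exosome subunit.

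**Figure D5:**
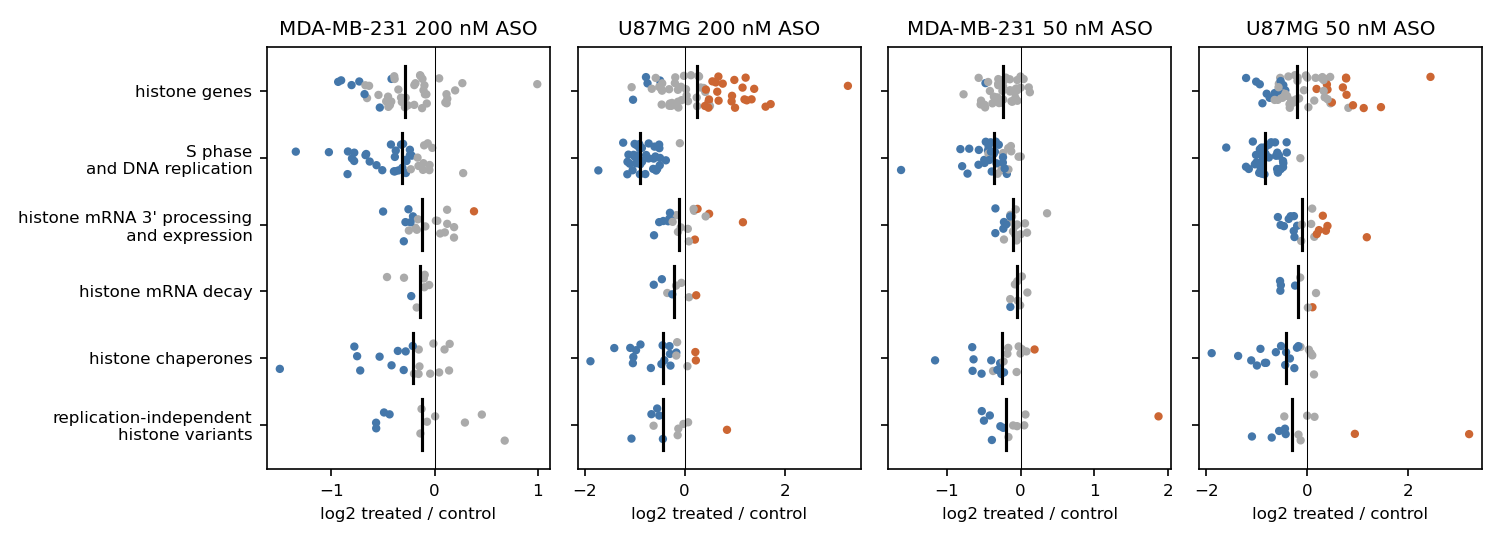
Log2 change (treated over control) of the histone genes with more than 11 counts in the line and of 5 gene lists, in the 4 cell line comparisons with ASO-1570; each point is a gene, orange if it rose and blue if it fell at an adjusted p below 0.05, grey otherwise, and the black bar is the median. In U87MG at 200 nM the S phase genes lie to the left of 0 with a median of -0.89 and the histone genes have a median of 0.24.

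Histone chaperones are the proteins that carry and deposit histones. With ASO-1570 in U87MG, 15 of 20 fell and 2 rose at 200 nM (23.9% and 25.8% of all genes) and 15 fell at 50 nM (26.7% of all genes). In MDA-MB-231, 10 of 20 fell at each dose (13.6% and 13.2% of all genes) and 1 rose, at 50 nM. With siRNA 1 fell and 2 rose in MDA-MB-231 (3.6% and 3.65% of all genes). In U87MG with siRNA 5 of the 20 fell, which is 25% against 2.6% of all genes. In the PDX no chaperone was called by edgeR. SUPT16H, a subunit of FACT, fell by 1.88 (SE 0.13) in U87MG and by 1.5 (SE 0.13) in MDA-MB-231 at 200 nM. Replication-independent variants are made outside S phase from polyadenylated mRNA. Of 11 tested at 200 nM, 5 fell and 1 rose in U87MG (23.9% and 25.8% of all genes) and 4 fell in MDA-MB-231 (13.6%). H2AZ2 fell by 0.66 and 0.57, and CENPA, the centromeric H3, by 1.06 and 0.57, in U87MG and MDA-MB-231. Among 13 further polyadenylation factors, 8 rose and 2 fell in U87MG at 200 nM, against the same 25.8% and 23.9%, and 2 rose and 3 fell in MDA-MB-231, against 11.7% and 13.6%. PCF11, a termination factor, rose by 1.22 (SE 0.13) in U87MG at 200 nM. At 50 nM 7 of the 13 factors rose and 2 fell in U87MG (27.9% and 26.7% of all genes). In MDA-MB-231 at 50 nM 0 rose and 6 fell (10.1% and 13.2% of all genes). In U87MG with ASO-1570 at 200 nM the summed level of the 5 glial markers went from 33.6 to 33.7 CPM in controls to 13.5 to 17.9 CPM, with NES making up most of it, and that of the 6 epithelial markers from 5.41 to 6.08 CPM to 9.37 to 10.8 CPM. The marker sums also differed between the groups in other comparisons with ASO-1570. In U87MG at 50 nM the glial sum was 30.4 to 33.1 CPM in controls and 11 to 19.9 CPM in treated libraries, and the epithelial sum was 4.65 to 4.89 and 7.4 to 8.49 CPM. The glial sum in the MDA-MB-231 experiment at 200 nM was 23.3 to 29 CPM in controls and 13.5 to 18.4 CPM in treated libraries, and the epithelial sum was 2470 to 2720 and 2910 to 4010 CPM. At 50 nM in that line the glial sum was 23.4 to 27.3 and 12.5 to 22.3 CPM. Their part in the histone values was not tested.

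Splicing gave little on these genes, most of which lack introns. The 200 nM table of PSI, the fraction of transcripts that include an event, held 179118 events, of which 1 lay in a member. It is a cassette exon of H2BC15, listed under its older name HIST1H2BN (chr6:27841564-27841661). It was included at a PSI of 1 in 10 of the 12 libraries, at 0.954 in treated MDA-MB-231 replicate 1 and at 0.952 in treated U87MG replicate 2. Its range within each line was below the minimum of 0.05 set for a test, so it was not tested. Without that minimum limma gave a difference of -0.015 in MDA-MB-231 (adjusted p = 0.65) and -0.016 in U87MG (adjusted p = 0.517). The other 3 PSI tables held no event named for a member.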

How the data were processed

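Messenger RNA was sequenced as 151-base read pairs in 46 libraries. The authors deposited raw counts per gene and library in 4 tables, and tables of PSI, a fraction from 0 to 1 given without read counts. The tools FastQC, MultiQC, Trimmomatic, STAR and StringTie and the build GRCh38 (hg38) are named in the submitters' processing notes. The annotation release, the strand setting and the treatment of reads that match several genes are not given in the sources used here. Of the 60668 gene identifiers, 60340 could be named.

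Each count table was fitted on all genes that passed edgeR's filter on low counts, with 1 coefficient per group, TMM scaling and the quasi-likelihood test (edgeR 4.0.16, R 4.3.3). P-values were adjusted over all genes of the comparison by the Benjamini-Hochberg method, and an adjusted p below 0.05 was a call. Differences between lines and between agents were contrasts of these coefficients, and tables were joined only for the contrast of agents. DESeq2 1.42.0, DESeq2 size factors, no filter, a replicate block, no mitochondrially encoded genes and fits without each library were the alternatives. PSI was tested with limma 3.58.1 on events with a range of at least 0.05. The scripts were tested on simulated data. Depth was 74978304 to 356831838 counts per library, and 8 members, in 4 pairs, have an exact copy of their coding sequence. Of the 68 members, 15 share 151-base windows with another gene, 13 of them over most of their length, and H2AC15 with H2BC15, H3C14 with H4C14, H3C15 with H4C15 and H2AC21 with BOLA1 overlap on opposite strands. Their values are uncertain.

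Values per library are given for the 10 members with the highest mean CPM and, per comparison, for up to 5 called members in each direction with the largest log2 change among those with a mean of at least 1 CPM in a group. Other called members are given by count, range or mean. The members and lists were chosen with earlier results of these data known.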

Additional observations from a re-analysis of the deposited data

Results flagged for a closer look

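In the PDX the H2AC6 level of 21.9 CPM in treated replicate 1 lay far above the other 4 treated tumours at 3.63 to 8.03 CPM, and the summed H4 level of 60.2 CPM in a control tumour lay far above the other 4 controls. In all, 32 groups of 5 tumours were examined for such a gap, and chance flags about 1 in 20 of them.

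The effect of ASO-1570 differed between MDA-MB-231 and U87MG in 19 members at 200 nM and in 6 at 50 nM, by edgeR's test of the difference. At 200 nM the difference, MDA-MB-231 minus U87MG, was -1.80 on the log2 scale for H2BC21, -1.01 for H2AC11, -0.97 for H2BC15 and -0.86 for H2BC18. At 50 nM it was -1.08 for H2BC21 and -0.86 for H2AC18. In U87MG the change with 50 nM ASO-1570 differed from that with siRNA in 14 members, where agent and experiment cannot be told apart.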

How the results depend on the processing

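Over 20 summary results and 131 alternative fits, 111 kept the direction and the side of the threshold or, for counts of calls, stayed within 1.5 times the reported count. Of the other 20 fits, 10 gave fewer calls, 5 gave more, 5 moved a value with no test, and none reversed. The 111 include counts that stayed at 0 in every refit without 1 library, namely siRNA in both lines, the PDX and splicing. In those refits no gene at all was called in the PDX, and no splicing event of a member was tested. Such fits had little room to change and do not show how stable the other results are. Over 22 values of single genes and 242 fits, 204 kept their call and 38 lost it, with no reversal. In MDA-MB-231 at 200 nM the 8 calls became 4 without the filter, 4 with the replicate block, 12 with DESeq2 and 3 to 9 without 1 library, with 3 when control replicate 1 or control replicate 2 was left out and 5 without treated replicate 1 or treated replicate 2. At 50 nM its 1 call became 6 with DESeq2, 2 with the replicate block and 0 to 4 without 1 library. The share of all genes called by DESeq2 was not counted at either dose. In U87MG, 20 to 26 members were called at 200 nM and 15 to 22 at 50 nM without 1 library. With the replicate block the MDA-MB-231 difference between ASO-1570 and siRNA had 1 call in place of 0. The block gave 24 calls for 28 in U87MG at 200 nM and 23 for 24 at 50 nM. The correlation of the deviations of same-numbered libraries was -0.088 to 0.102 in the cell lines. In the PDX it was 0.774 for replicate 1 and 0.42 for replicate 5 and -0.209 to -0.097 for the other 3, and in no comparison was every pair above 0.1, so the numbers were not taken to pair the samples. The summed level, treated minus control, went from -18.6 to -7.97 CPM (plain totals) or -7.43 CPM (totals without mitochondrially encoded genes) in MDA-MB-231 at 200 nM, from -19.8 to -11.4 or -10.6 CPM at 50 nM, and from -7.7 to -77.7 CPM (plain totals) in the PDX. The cause of these shifts was not tested. Chosen after seeing the data, members above 11 counts in the line gave 7, 28, 1 and 24 calls (MDA-MB-231 and U87MG at 200 nM, then at 50 nM), and 1 gene of each identical pair gave 8, 25, 1 and 22. At most 3 counts per library stand behind the rise of H3C8 in MDA-MB-231, and a change of the genes that were low in that line was not detectable at this depth.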
